A study of Danio rerio with 8 samples.

Results

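Granulocytes store their weapons in cytoplasmic granules before they are needed. Peroxidases and lysozyme attack microbes, metalloproteases cut proteins, and the proteoglycan serglycin holds the cargo in place. In zebrafish the same proteins mark neutrophils and eosinophils in whole tissue, since other cells make little of most of them. The granulocyte granule genes were chosen as a list of 6 names, ENSDARG00000019521, mpx, lyz, npsn, srgn and cpa5, and 4 of them were found among the 31953 gene IDs of the count files by ID or by symbol. The symbol table matched mpx and cpa5 to no ID, and these are not analysed here under those names.

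The 4 genes play different roles. ENSDARG00000019521 carries the human-style symbol EPX in the table, which in human stands for eosinophil peroxidase, a haem enzyme of eosinophil granules related to the myeloperoxidase of neutrophils. The table does not settle whether it is the gene listed as mpx, so it is called the peroxidase gene ENSDARG00000019521. The gene lyz (ENSDARG00000057789) encodes lysozyme, which cleaves bacterial cell walls and is made by zebrafish neutrophils and by some macrophages. The gene npsn (ENSDARG00000010423) encodes nephrosin, a metalloprotease of the astacin family found in zebrafish neutrophils. The gene srgn (ENSDARG00000077069) encodes the core of serglycin, which in mammals is also made by other blood cells and by endothelium.

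Transcripts were counted in hearts of zebrafish of the TU strain at 21 days post fertilisation (dpf), with 3 libraries labelled control and 3 labelled zfpm1 mutant. zfpm1 encodes a zinc finger cofactor of GATA factors. The labels give no allele and do not say whether a library is 1 animal or a pool, so p-values measure the spread between libraries, which may be partly technical. The zfpm1 transcript itself (ZFPM1, ENSDARG00000041572) had 419, 344 and 423 counts in control and 558, 471 and 956 in mutant replicates 1 to 3 and did not pass the test (edgeR adjusted p 0.241), which does not check the labels, since a mutant allele need not change its transcript level. Gene counts ran from 7614329 to 9909966 per heart library. The cardiac genes MYL7, cmlc1 and actc1a were abundant in all 6, as fits the label heart.

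Of the 6 heart libraries, 2 share their totals with other files in a way that the labels do not explain. A further pair of files is labelled as embryos at 36 hours post fertilisation, 1 for each genotype. The file labelled control embryo has the same total of all lines, 19276348, and the same number of reads not uniquely aligned as mutant heart replicate 1. The file labelled mutant embryo shares both numbers with control heart replicate 1, with a total of 22649056. Those files enter no comparison, and results are also given without both heart libraries numbered 1.

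Of the 4 granule genes, 3 were higher in mutant hearts and 1 was not. Peroxidase gene ENSDARG00000019521 was higher by a factor of 74.6, lyz by 9.42 and npsn by 6.39, while srgn did not pass the test. All 3 rises passed edgeR's quasi-likelihood test at a Benjamini-Hochberg adjusted p under 0.05 over 16707 genes, in which 7.02% of all genes were called higher, 2.42% lower and 9.43% in either direction. The groups did not overlap, with mutants higher, for the same 3 genes and for 16.8% of all genes. The median log2 fold change of the 4 genes was 2.96, against -0.01 over all genes tested. In bulk hearts more cells of a type and more RNA per cell cannot be told apart.

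Transcripts of the peroxidase gene ENSDARG00000019521 were at low levels in control hearts and abundant in mutant hearts. It had 27, 50 and 57 counts in control replicates 1 to 3 and 2774, 5124 and 3712 counts in mutant replicates 1 to 3. In CPM, that is, counts put on one library size with TMM scaling factors, these were 3.30, 6.17 and 7.19 CPM in control hearts against 310.4, 577 and 358 CPM in mutants. The groups are far apart, and the lowest mutant library was 43.2 times the highest control library. The means were 5.55 ± 2.01 CPM and 415 ± 142 CPM (SD, n = 3 each). The log2 fold change was 6.22, with a standard error (SE) of 0.40, a 95% interval of 5.32 to 7.12 and an edgeR adjusted p of 9.22e-05. Its unadjusted p was the 12th smallest of all genes tested.

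A second peroxidase ID, ENSDARG00000012535, carries the zebrafish symbol epx. It had 3 counts in control replicate 3, 3 in mutant replicate 1 and 0 in the other heart libraries, so no difference could be measured at this depth. Reads not uniquely aligned were counted apart from the genes, so reads that fit both peroxidase genes could have been left out, which was not tested.

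Lysozyme transcripts were higher in each mutant heart than in any control heart. The lyz counts were 24, 51 and 79 in control replicates 1 to 3 and 648, 608 and 415 in mutant replicates 1 to 3. Levels were 2.94, 6.29 and 9.96 CPM in control hearts against 72.5, 68.4 and 39.97 CPM in mutants. The lowest mutant library, replicate 3, was 4.01 times the highest control library, also a replicate 3. Means were 6.40 ± 3.52 and 60.3 ± 17.7 CPM (SD, n = 3 each), with a log2 fold change of 3.24 (SE 0.42, 95% interval 2.28 to 4.19, edgeR adjusted p 0.00239).

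The npsn transcript rose too, with the groups closer to each other. Its counts were 10, 26 and 50 in control replicates 1 to 3 and 312, 218 and 97 in mutant replicates 1 to 3. Levels were 1.22, 3.21 and 6.31 CPM in control hearts against 34.9, 24.5 and 9.34 CPM in mutants. Mutant replicate 3 was 1.48 times control replicate 3, and the groups did not overlap. Means were 3.58 ± 2.56 and 22.9 ± 12.9 CPM (SD, n = 3 each), with a log2 fold change of 2.68 (SE 0.61, 95% interval 1.297 to 4.05, edgeR adjusted p 0.0274). Only 2 of the 3 control libraries reached the level the filter on low counts asks for, so npsn was tested by way of its mutant libraries.

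The npsn call was not kept in every fit with libraries left out. It was lost without control replicate 1 (log2 fold change 2.26, adjusted p 0.0556), control replicate 2 (2.59, 0.0926), mutant replicate 1 (2.25, 0.0740) or mutant replicate 2 (2.62, 0.0658), all by edgeR. Without both libraries numbered 1 its log2 fold change was 1.84, with an edgeR adjusted p of 0.0617. Without control replicate 3 it was 3.35 and called (edgeR adjusted p 0.0426).

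The serglycin gene srgn did not pass the test, and its groups overlapped. Counts were 1217, 1610 and 1306 in control and 1544, 1623 and 1718 in mutant replicates 1 to 3. Levels were 149, 199 and 165 CPM in control hearts against 173, 183 and 165 CPM in mutants, so the mutant range lay inside the control range. Means were 171 ± 25.4 and 174 ± 8.64 CPM (SD, n = 3 each), and the log2 fold change was 0.02 (SE 0.18, edgeR adjusted p 0.959). Its 95% interval of -0.39 to 0.44 on the log2 scale, a factor of 0.764 to 1.35, lies below the lower bound of each of the other 3 genes. The difference between srgn and the others was not tested in itself.

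**Figure D1:**
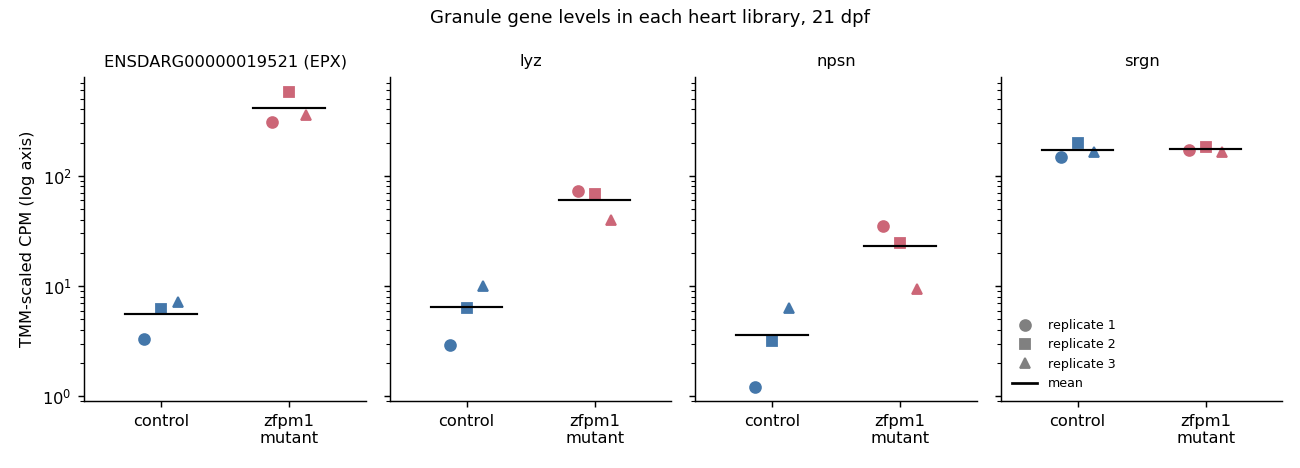
Level of each granule gene in TMM-scaled CPM (log axis) in the 3 control and 3 zfpm1 mutant heart libraries, with a marker per replicate and a line at the mean. All of ENSDARG00000019521, lyz and npsn are higher in all 3 mutant libraries than in any control library, from 310.4 to 577 CPM against at most 7.19 CPM for the first, while srgn lies between 149 and 199 CPM in all 6.

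All 3 genes that rose varied alike in the control libraries. Control replicate 1 was the lowest and control replicate 3 the highest for each of them, with the highest 2.18 times the lowest for the peroxidase gene ENSDARG00000019521, 3.39 times for lyz and 5.16 times for npsn. In the mutant libraries they parted: the peroxidase gene was highest in replicate 2, while lyz and npsn were highest in replicate 1 and lowest in replicate 3. The highest mutant library was 1.86, 1.81 and 3.74 times the lowest for the 3 genes in that order, and 1.104 times for srgn.

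The ratio of one granule transcript to another within a library, which does not depend on library size, shows how unequal the rises were. The log2 ratio of the peroxidase gene ENSDARG00000019521 to lyz was 0.17, -0.03 and -0.47 in control and 2.098, 3.08 and 3.16 in mutant replicates 1 to 3. The mutant mean exceeded the control mean by 2.89. The log2 ratio of lyz to npsn was 1.26, 0.97 and 0.66 in control and 1.05, 1.48 and 2.097 in mutant replicates 1 to 3, so these groups overlap and the means differ by 0.58. These ratios are descriptions, since an exact permutation test of 3 libraries against 3 cannot give a p under 0.1, and they compare no levels between genes of different length.

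**Figure D2:**
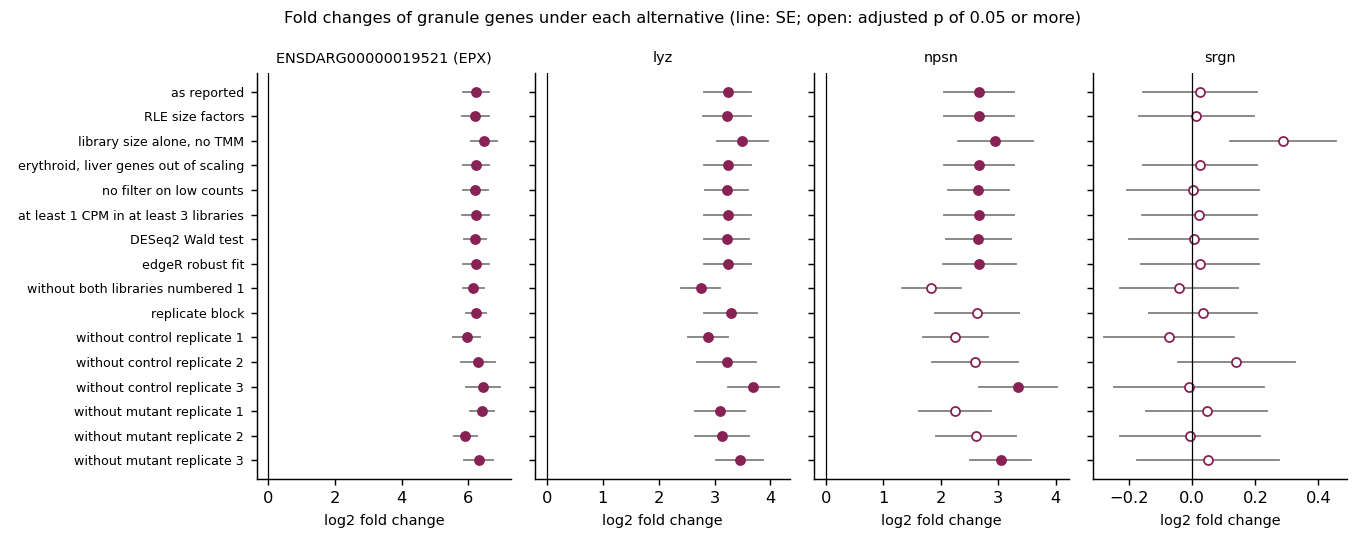
Log2 fold change of each granule gene, mutant over control, as reported and under each other setting, with lines of 1 SE and open points where the adjusted p was 0.05 or more (the 4 horizontal axes differ in range). The peroxidase gene ENSDARG00000019521 stays between 5.91 and 6.46 and lyz between 2.75 and 3.69, each called under every setting plotted, while npsn lies between 1.84 and 3.35 with 6 open points.

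Other genes of the granulocyte programme also rose. Of 24 symbols in that list 19 had an ID, giving 20 IDs of which 13 were tested, and 8 rose and none fell (median log2 fold change 1.93). Of these 8, 3 entered by way of their mutant libraries, CSF3R, cxcl8a and mmp25b. CXCR4 (ENSDARG00000041959), the chemokine receptor that holds neutrophils in blood-forming tissue, rose from 3.96 ± 0.953 to 27.6 ± 5.75 CPM (log2 2.80, SE 0.28, edgeR adjusted p 0.000640). CSF3R, the receptor of the granulocyte growth factor, rose from 1.98 ± 1.23 to 14.1 ± 3.75 CPM (log2 2.82, SE 0.47, edgeR adjusted p 0.00717). Both were higher in each mutant library than in any control library.

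The C/EBP factors switch on granule genes as granulocytes mature in mammals. CEBPB rose from 23.6 ± 12.3 to 115.6 ± 22.1 CPM (log2 2.29, SE 0.41, edgeR adjusted p 0.00951) and CEBPD from 53.4 ± 7.98 to 118 ± 24.6 CPM (log2 1.15, SE 0.22, edgeR adjusted p 0.0120). CEBPA had a log2 fold change of 0.61 (SE 0.24, edgeR adjusted p 0.163) and did not pass. The call of CEBPD was lost without control replicate 3 (edgeR adjusted p 0.0824).

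The other 4 that rose were the chemokine gene cxcl8a (log2 3.49, SE 0.89), the membrane metalloprotease gene mmp25b (2.94, SE 0.64), the metalloprotease gene adam8a (1.93, SE 0.38) and il34 (1.67, SE 0.40), a ligand of the macrophage receptor CSF1R. The level of cxcl8a was 39.4 CPM in mutant replicate 1 and 5.74 and 4.33 CPM in the others, and its log2 fold change ran from 1.48 to 3.94 over the alternatives. Each of these 4 calls was lost without 1 or more single libraries, with edgeR adjusted p up to 0.152, 0.0798, 0.0748 and 0.160 over the alternatives in that order. The call of cxcl8a was also lost with edgeR's robust fit. Besides CEBPA, the tested genes of the list that did not pass were MMP9, ABCB9, mmp13a and csf3a. MMP9 had a log2 fold change of 1.98 (edgeR adjusted p 0.0723) and ABCB9 of 1.28 (edgeR adjusted p 0.102), and their mutant libraries were all above the control libraries. The groups overlapped for mmp13a (edgeR adjusted p 0.12) and csf3a (log2 -0.02, edgeR adjusted p 0.993). Among untested markers at low counts, illr4 had 0 counts in control and 3, 6 and 2 in mutant replicates 1 to 3. The gene cebp1 had 2, 0 and 1 in control and 15, 5 and 9 in mutant replicates. The groups overlapped for the untested IDs of cxcr1, gfi1aa, csf3b and cxcl8b.1. A second CXCR4 ID, ENSDARG00000057633, also untested, was higher in each mutant library than in any control library.

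In the granulocyte list the count of genes that rose fell from 8 to 5 without both libraries numbered 1 or without control replicate 1 alone, and to 4 without control replicate 3. Without both libraries numbered 1 its median log2 fold change was 1.18. Over all genes, those called higher fell from 1172 to 876, 733 and 443 in these fits, in the order given. The peroxidase gene and lyz were called in each of these fits, as were CXCR4, CSF3R and CEBPB.

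Genes listed for mast cells or eosinophils gave a mixed picture. Of 13 IDs 7 were tested, 5 rose and none fell (median log2 fold change 2.56). Of these 5, 4 had fewer than 3 control libraries at the filter level, KIT and il13 none, ALOX5 and fcer1g 2. They entered the count and the median by way of their mutant libraries. With no filter on low counts the median over all 13 IDs was 1.86, with 6 called higher. The Fc receptor gamma chain gene fcer1g, which signals in mast cells and other myeloid cells, rose from 1.69 to 11.4 CPM (log2 2.74, SE 0.42) and fcer1gl from 12.8 to 49.8 CPM (log2 1.96, SE 0.35). ALOX5 (ENSDARG00000057273), which starts leukotriene synthesis, rose from 1.81 to 10.8 CPM (log2 2.56, SE 0.54). KIT (ENSDARG00000043317), in mammals the stem cell factor receptor of mast cells and blood progenitors, rose from 0.747 to 6.29 CPM (log2 3.05, SE 0.80). The type 2 cytokine gene il13 rose from 0.574 to 12.3 CPM (log2 4.37, SE 0.89). The edgeR adjusted p of these 5 was 0.00507, 0.0101, 0.0197, 0.0456 and 0.0168.

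The mast cell factor GATA2 (ENSDARG00000059327) had a log2 fold change of -0.41 (SE 0.21, edgeR adjusted p 0.291) and did not pass. Its level was 20.1 ± 1.90 CPM in control hearts against 15.1 ± 2.29 CPM in mutants, lower in each mutant library than in any control library. The related gata2b had no count in control hearts and 6, 25 and 18 counts in mutant replicates 1 to 3, at least 14.0-fold higher against a floor of 3 counts over the control group, a bound that covers counting error only. The list's count fell from 5 to 1 without control replicate 3 and to 2 without mutant replicate 2. Over all genes, those called higher fell from 1172 to 443 and to 878 in the same fits. The call of fcer1g held under every alternative run, and those of fcer1gl, ALOX5, KIT and il13 were lost without 1 or more single libraries, with edgeR adjusted p up to 0.0656, 0.1, 0.140 and 0.0568.

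**Figure D3:**
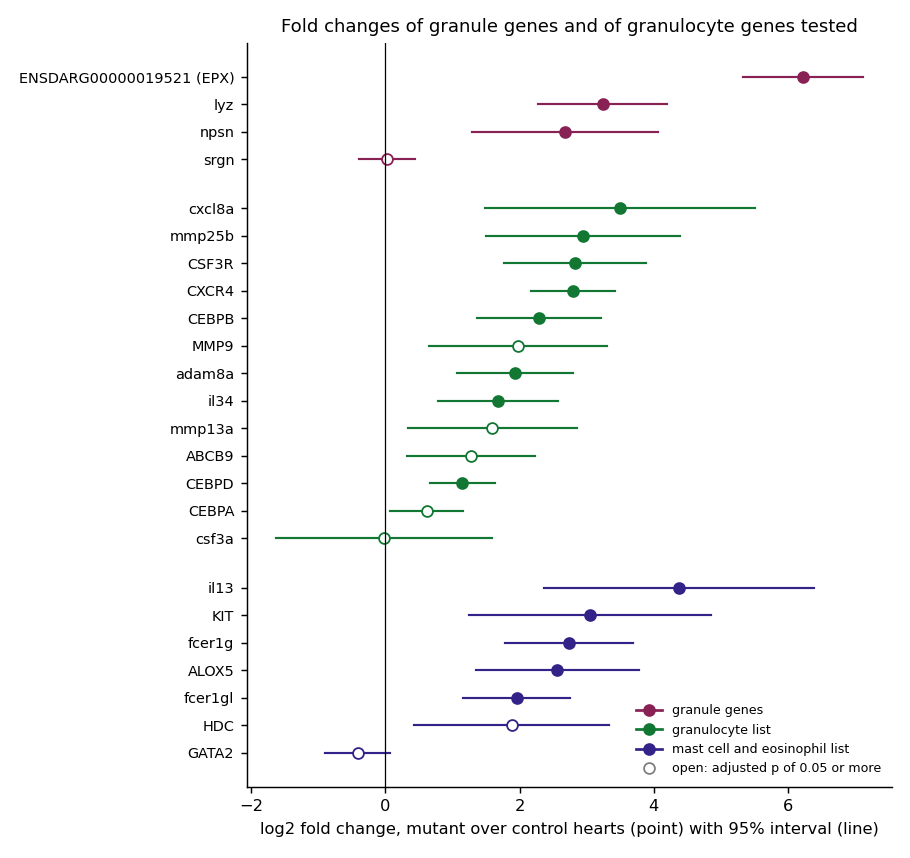
Log2 fold change of mutant over control hearts with its 95% interval for the 4 granule genes and for the tested genes of the granulocyte list and of the mast cell and eosinophil list, with open points where the adjusted p was 0.05 or more. At 6.22, ENSDARG00000019521 stands to the right of every other gene plotted, srgn and csf3a lie near 0, and GATA2 stands at -0.41.

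Most enzyme relatives of the granule genes did not pass the test. Of 20 IDs, which cover astacins, pancreatic and other carboxypeptidases, peroxidasin and small proteoglycans, 10 were tested and 2 rose (median log2 fold change 0.56). Both that rose were under the filter level in all 3 control libraries and were tested only by way of their mutant libraries. Those were the proteoglycan gene BGN (ENSDARG00000017884), at 6.90 (SE 0.79, edgeR adjusted p 0.00121), and CPB2, a carboxypeptidase made in the liver, at 5.42 (SE 0.75, edgeR adjusted p 0.00314). Both were called under every alternative run, with log2 fold changes of 5.59 to 7.81 for BGN and 4.86 to 6.94 for CPB2. The other BGN ID, ENSDARG00000002945, did not pass (log2 1.11, edgeR adjusted p 0.387), and its groups overlapped. The matrix peroxidase gene PXDN had 62.3 ± 26.99 CPM in control hearts and 49.7 ± 8.23 CPM in mutants (log2 -0.33, edgeR adjusted p 0.620). The hatching enzyme genes he1.1, he1.2 and he1.3, astacins like npsn, had 0 counts in all 6 hearts, and c6ast4 had 0, 246 and 48 counts in control and 43, 219 and 7 in mutant replicates 1 to 3.

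Carboxypeptidase A transcripts overlapped between the groups and varied widely within them. The 2 IDs that carry the symbol CPA1 had 16, 408 and 204 (ENSDARG00000021339) and 2, 41 and 13 (ENSDARG00000030915) counts in control and 228, 740 and 57 and 26, 102 and 8 counts in mutant replicates 1 to 3. The trypsin gene prss1, a marker of exocrine pancreas, had 28, 844 and 255 in control and 284, 1366 and 136 in mutant replicates. Replicate 2 was the highest of its group for all 3 genes, and none of them passed (edgeR adjusted p 0.810, 0.582 and 0.834). In CPM, replicate 2 was also the highest of both groups for srgn and of the mutant group for the peroxidase gene ENSDARG00000019521, while control replicate 3 was the highest control library for the 3 granule genes that rose. By counts, srgn was highest in mutant replicate 3 among the mutants. The part of pancreas tissue in the granule genes was not tested.

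Other antimicrobial genes were mostly at low counts. Of 10 IDs 5 were tested and 2 rose, both with no count in any control heart, so they were tested only by way of their mutant libraries. The peptidoglycan recognition gene pglyrp5 had no count in control and 24, 33 and 23 counts in mutant replicates 1 to 3, at least 23.2-fold higher. The other was hamp, which encodes the liver hormone hepcidin. The beta-defensin gene defbl1 had 223, 71 and 50 counts in mutant and 5, 17 and 33 in control replicates 1 to 3 and did not pass (log2 2.45, SE 0.75, edgeR adjusted p 0.0788).

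Transcripts common to white blood cells rose by less than the peroxidase gene. Of 15 tested leukocyte genes 13 rose and none fell. The median log2 fold change was 1.91 and the largest 2.60, that of the CD45 gene ptprc. ptprc rose from 8.12 ± 1.47 to 49.3 ± 21.2 CPM and rac2, a GTPase of neutrophil movement, from 13.4 ± 5.38 to 51.2 ± 10.02 CPM (log2 1.93, SE 0.30, edgeR adjusted p 0.00517). The lower bound of the interval of the peroxidase gene, 5.32, lay above every fold change in the list, that of lyz, 2.28, above its median, and that of npsn, 1.297, below its median. The kinase gene LYN stood at 10.3 ± 2.21 and 11.3 ± 1.87 CPM and did not pass (log2 0.13, edgeR adjusted p 0.833), nor did 1 of the 2 IDs that carry FERMT3, an integrin activator (ENSDARG00000030938, log2 1.14, edgeR adjusted p 0.0928). The other FERMT3 ID, ENSDARG00000079267, rose (log2 2.51, SE 0.45, edgeR adjusted p 0.00993). Without control replicate 3 the leukocyte genes that rose numbered 7, while those called higher over all genes fell from 1172 to 443.

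Macrophage transcripts rose beside the granulocyte genes. Of 18 tested macrophage genes 16 rose and none fell (median log2 fold change 1.89), and the summed level of the list was 264 to 432 CPM in control hearts against 1193 to 1626 CPM in mutants. Of these 16, MFAP4 ENSDARG00000090557 was under the filter level in every control library, so it was tested by way of its mutant libraries. The summed level of the granulocyte list was 122 to 202 CPM in control hearts against 359 to 535 CPM in mutants, and that of the mast cell and eosinophil list 33.2 to 50.2 and 102 to 122 CPM. Most of the granulocyte sum came from CEBPA, CEBPB and CEBPD, at means of 60.4, 23.6 and 53.4 CPM in control hearts. In mutants these were 92.5, 115.6 and 118 CPM. In which cells these transcripts were made was not tested. Since lyz is also made by some macrophages, its share from each cell type cannot be told apart here. Without control replicate 3 the macrophage genes that rose numbered 8, while those called higher over all genes fell from 1172 to 443.

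Markers of other tissues moved with the genotype in part. All 10 tested erythroid genes fell. Of 13 liver genes 12 rose, and the summed level of the liver list was 415 to 500.01 CPM in control hearts against 4708 to 6543 CPM in mutants. Of these 12, ahsg1, ambp and CP had fewer than 3 control libraries at the filter level, so they entered by way of their mutant libraries. No exocrine pancreas gene, of 13, and no gill or skin epithelium gene, of 10, passed, nor did any of 8 cardiomyocyte genes. The summed cardiomyocyte level was still lower, at 34008 to 43909 CPM in control hearts against 16929 to 27653 CPM in mutants. With DESeq2 alone, 2 cardiomyocyte genes were called lower. Of 6 endothelial IDs 1 rose, CLDN5 ENSDARG00000014059 (log2 1.72), while the other CLDN5 ID, ENSDARG00000043716, did not pass (log2 0.67, edgeR adjusted p 0.378). Of 3 tested kidney IDs 1 fell, SLC20A1 ENSDARG00000020114 (log2 -5.68). The other SLC20A1 ID, ENSDARG00000010641, was higher in each mutant library than in any control library, at 199.7 ± 9.17 against 339 ± 83.5 CPM, and did not pass (log2 0.76, edgeR adjusted p 0.0666). Kidney IDs called higher numbered 0 as reported, 1 with library size alone, 2 with no filter on low counts, 2 without mutant replicate 3 and 3 with DESeq2. The summed level of the lymphoid list was 508 CPM in mutant replicate 2 and 8.28 to 30.6 CPM in the other 5 libraries. No lymphoid gene passed as reported. The gene cd4-1 was higher in each mutant library than in any control library (log2 2.63, edgeR adjusted p 0.0714). Lymphoid IDs called higher numbered 1 with library size alone, no filter on low counts, DESeq2 or a replicate block. The same number was called without both libraries numbered 1 or without mutant replicate 1. The kidney transporter genes SLC12A1 and SLC12A3 had no count in any heart, while the epithelial gene CDH17 had 385 counts in mutant replicate 2, 40 in mutant replicate 1 and at most 8 elsewhere. The ion pump gene atp1a1a.4, a marker of kidney tubules and ionocytes, had 0, 7 and 2 counts in control and 202, 830 and 7 in mutant replicates 1 to 3, and was not tested under the filter. The part of these tissues in the granule genes was not tested. Without mutant replicate 2 the log2 fold change was 5.91 for the peroxidase gene ENSDARG00000019521 and 3.13 for lyz, both called.

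**Figure D4:**
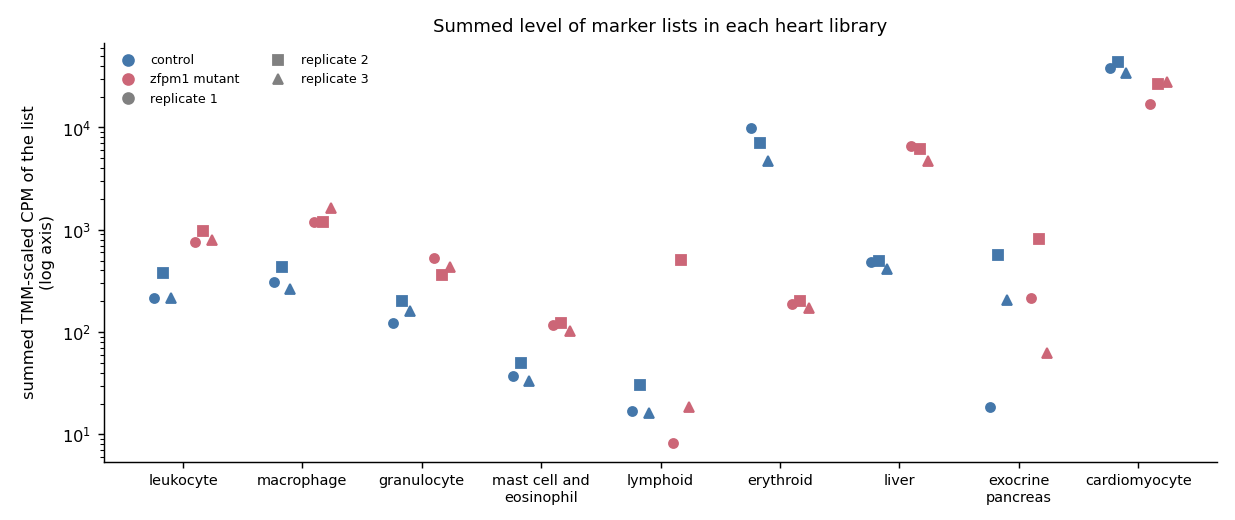
Summed level of 9 marker lists in TMM-scaled CPM (log axis) in each control and zfpm1 mutant heart library. The leukocyte, macrophage, granulocyte, mast cell and eosinophil, and liver lists are higher in all 3 mutant libraries, the erythroid and cardiomyocyte lists are lower, and the lymphoid list stands at 508 CPM in mutant replicate 2 alone.

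The libraries numbered 1 could be compared with the files of the same totals. In mutant heart replicate 1 the counts were 0.512 (ENSDARG00000019521), 0.506 (lyz), 0.501 (npsn) and 0.516 (srgn) of those in the file labelled control embryo, where the median gene had 0.503. In control heart replicate 1 the low counts gave 0.435, 0.632, 0.385 and 0.533 of those in the file labelled mutant embryo, with a median of 0.504. Without both libraries numbered 1 the log2 fold change was 6.14 for the peroxidase gene and 2.75 for lyz, with edgeR adjusted p of 2.78e-06 and 0.00103.

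The genes most like the mean pattern of the 4 granule genes over the 6 heart libraries were LSS, NDRG1, ABCB9, QPCT, PC and cyp2v1, with a Pearson r of 0.995, 0.993, 0.992, 0.990, 0.99 and 0.989. The r is of log2(CPM + 1) with the mean of the standardised granule profiles, among 13054 genes with a mean of at least 2 CPM, and with so many candidates for 6 libraries it is only a description. That mean gives srgn, which was not called, the same weight as each gene that rose. It stood at -0.23 in control replicate 2 and -0.48 in control replicate 3. For each gene that rose, control replicate 3 was the highest control library. LSS, an enzyme of sterol synthesis, had 3.55, 8.14 and 7.95 CPM in control and 22.2, 21.9 and 13.7 CPM in mutant replicates 1 to 3. LSS and NDRG1 were called higher, at log2 fold changes of 1.55 and 1.36, and the other 4 were not. Both calls were lost without single libraries, with edgeR adjusted p up to 0.0858 and 0.0839.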

How the data were processed

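The authors deposited raw counts of reads per gene, 1 file per library. The submitters' processing notes name HTSeq 0.6.1p1, TopHat2 2.2.1, Bowtie2 2.2.3, FastQC 0.11.5 and bcl2fastq, and the build GRCz10. The annotation release and the counting strand are not given in the sources used. Of all lines' totals in heart files, 42.4% to 48.8% were in no feature, and such lines entered neither library sizes nor tests.

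Symbols came from a table naming 26121 of 31953 IDs. A listed symbol was matched exactly or by its capital form without suffix, so it can stand for a paralog. Genes passing filterByExpr (minimum count 10) were scaled by TMM and compared with edgeR 4.0.16 in R 4.3.3, with genotype as the only term and calls at a Benjamini-Hochberg adjusted p under 0.05. The fit was also run on counts simulated with the dispersions it had estimated from these data, which cannot check those dispersions. DESeq2 1.42.0 and other settings were alternatives.

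The granule genes, the 14 gene lists, the tests and the rule for naming genes (up to 4 called genes of each list by adjusted p and its 2 most abundant, and 6 genes of like pattern) were chosen with earlier results of these data known. Further genes of short lists were named after their values were seen.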

Additional observations from a re-analysis of the deposited data

Results flagged for a closer look

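The file labelled control embryo shares its totals with mutant heart replicate 1, so its values cannot be taken as a separate observation. This file, which enters no comparison, held more of each granule gene than any control heart, in CPM of gene counts without TMM. There, ENSDARG00000019521 stood at 369 CPM, against at most 6.95 CPM in control hearts and 364 to 604 CPM in mutant hearts. The lyz level was 87.2 CPM, against at most 9.64 CPM in control hearts. The npsn level was 42.4 CPM, against at most 6.10 CPM in control hearts. The srgn level was 204 CPM, against at most 167 CPM in control hearts. The file labelled mutant embryo held 3.70, 2.27, 1.55 and 136 CPM of the 4 genes in the same order. With 1 file per label these are values with no test, and the totals shared with heart libraries of the other genotype are given in the report. The median gene of mutant heart replicate 1 had 0.503 of the counts in the file labelled control embryo. For control heart replicate 1 and the file labelled mutant embryo it was 0.504. Given the shared totals, these files are not treated as independent of those libraries. How the totals came to be shared was not tested.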

How the results depend on the processing

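The peroxidase gene ENSDARG00000019521 and lyz kept their direction and their call under all 15 alternatives, and srgn was called under none. The npsn rise was not called without both libraries numbered 1 (log2 fold change 1.84) or with a replicate block (2.63, adjusted p 0.0744), and with any 1 library left out lay between 2.25 and 3.35. The cause was not tested. The replicate numbers are not stated to pair the samples. Deviations of same-numbered libraries correlated at 0.11, 0.24 and -0.07, and those of other pairs at -0.28 to 0.14. With 3 libraries per group this cannot decide whether the numbers pair the samples. The block gave 1476 called genes against 1576, and cxcl8a, il34 and KIT were not called with it. With 1 library left out 604 to 1302 genes were called, 443 to 1035 higher and 161 to 328 lower, and the main split was 1172 and 404. Lower genes numbered 236 with library size alone, where 87.5% of calls were higher against 74.4% and the median log2 fold change moved from -0.01 to 0.25, and 665 with DESeq2. With library size alone srgn had a log2 fold change of 0.29. Counts of list genes that rose, chosen as alternatives after seeing the data, ran from 4 to 7 (granulocyte), 1 to 5 (mast cell and eosinophil), 7 to 13 (leukocyte) and 8 to 15 (macrophage) with 1 library left out, and the granulocyte count was 5 without both libraries numbered 1. Of 62 other called genes followed, 36 kept their call under every alternative, and none reversed. At the depth of the control hearts, with 10 to 79 counts of the genes that rose, counting error limits the precision of each value.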
